A study of Homo sapiens with 12 samples.

Results

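RNA held by HuR in the cytoplasm of olaparib-treated MiaPaCa-2 cells was compared with the RNA that a nonspecific IgG recovered from the same kind of lysate. The comparison rests on 4 of the 12 Clariom D arrays of the series, which are 2 HuR-IP arrays (OLAP-HuR) and 2 IgG-IP arrays (OLAP-IgG) from cells given 10 µM olaparib for 16 h. It covers 33458 genes, each read by a transcript cluster (the probes that the array sums into 1 value) with exactly 1 gene symbol. Of the 135750 clusters, 36176 had a single symbol, and the cluster with the highest mean over the 12 arrays stood for its gene. The other 8 arrays came from cells given 1 µM gemcitabine, a nucleoside analog, for 16 h (GEM-HuR and GEM-IgG) or the vehicle DMSO, for which the labels give no time (DMSO-HuR and DMSO-IgG), with 2 arrays in each group. All samples are of 1 human PDAC cell line grown in the same medium, so they hold no second line and no patient material. The arrays of a group are labelled as biological replicates, but nothing says whether their cultures were separate, so the p-values measure only the spread between these arrays. None of the 12 arrays held RNA that had not been precipitated, so a value does not say how much of a transcript the cells contained. By the paper's methods each array received a set amount of labeled target. A difference therefore compares a transcript's signal relative to the others in each precipitate, and not the amount recovered.

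HuR, encoded by ELAVL1, is an RNA-binding protein that recognizes U-rich and AU-rich stretches, mainly in the 3′UTRs of mRNAs and in introns. It is mostly nuclear in unstressed cells and shuttles to the cytoplasm, where it is known for stabilizing mRNAs and altering their translation. In RNP-IP an antibody pulls down the protein together with the RNA it holds, and a parallel IgG-IP gives the RNA that sticks without it. Olaparib blocks PARP enzymes and holds them on damaged DNA, and cells that lack homologous recombination are known to be sensitive to it.

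The 4 arrays had median signals of 3.89 and 3.94 in OLAP-HuR and 3.74 and 3.88 in OLAP-IgG on the log2 scale, against 2.88 to 3.01 for the background probes of all 12 arrays. Over all genes tested the arrays of a group correlated at 0.962 (OLAP-HuR) and 0.967 (OLAP-IgG), and HuR-IP correlated with IgG-IP at 0.885 to 0.906; these are correlations across genes, which are not independent replicates. On the first principal component both OLAP-HuR arrays (140.3 and 118.4) lay with the HuR-IP arrays numbered 1 of gemcitabine (138.5) and DMSO (107.5). GEM-HuR 2 (-20.8) and DMSO-HuR 2 (-27.6) stood apart from them, toward the IgG-IP arrays, which lay between -80.3 and -72.1. The shared estimate of the spread includes these 2 arrays, so counts are also given without them. Among markers, KRT18 had 11.34 and 11.34 in OLAP-HuR and 15.70 and 14.88 in OLAP-IgG, and VIM, the intermediate filament of mesenchymal cells, had 11.38 and 11.30 in OLAP-HuR and 13.88 and 12.78 in OLAP-IgG. EPCAM and CDH1, both markers of epithelial cells, were at 2.81 to 3.89 on all 4 arrays, near the background probes, and FN1 was at 2.94 to 3.56. All 12 tested acinar, endocrine, endothelial and erythroid markers were under 6 on all 4 arrays. Of the immune and fibroblast markers, CD68 had 4.82 and 6.78 in OLAP-HuR and 6.37 and 7.83 in OLAP-IgG, and COL1A1, a collagen chain, had 9.75 and 10.05 in OLAP-HuR and 9 and 10.41 in OLAP-IgG.

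A total of 145 genes were higher and 1017 genes were lower in OLAP-HuR than in OLAP-IgG at an adjusted p under 0.05 (limma, Benjamini-Hochberg over all genes tested), which is 0.433% and 3.04% of the genes. The direction of these calls was thus mostly downward, with 12.5% of them higher. This split depended on the scaling of the arrays. It was 24% higher after cyclic loess, with 235 and 744 calls, and 46.2% higher when each array was centred on the median of its genes with a mean above 6, with 588 and 684 calls, a step that moved the median difference of all genes, which was -0.07, up by 0.75. At an unadjusted p under 0.05 the counts were 1872 higher (5.6%) and 4133 lower (12.4%). With the replicate number as a block they were 1063 higher (3.18%) and 2281 lower (6.82%) at the adjusted threshold. In that fit 31.8% of the calls were higher, and all 145 and 1017 genes were among them. When GEM-HuR 2 and DMSO-HuR 2 were left out of the fit without a block, the counts were 959 and 2045.

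Below, genes that rose or fell are those higher or lower in OLAP-HuR than in OLAP-IgG, which is not a response to olaparib. The genes that rose were bright in HuR-IP, with a median signal of 11.29 in OLAP-HuR and 8.42 in OLAP-IgG. Their median log2 difference was 2.44 (0.96 to 5.92). The genes that fell had a median of 7.53 in OLAP-HuR and 10.62 in OLAP-IgG, and a median difference of -3.06 (-8.43 to -1.08). The choice of the genes fixed these differences, so they are a description. Of the genes that rose, 103 were protein-coding (0.584% of those tested), 20 were pseudogenes, 11 were long noncoding RNAs and 7 were miRNA genes. Of those that fell, 578 were protein-coding (3.28%), 407 were pseudogenes, 10 were long noncoding RNAs and 3 were miRNA genes. Of 291 genes whose difference was above 4, 21 passed, with a median SE of 0.88 in these and 1.76 in the other 270. Of 213 genes whose difference was below -4, 161 passed, with a median SE of 0.57 in these and 1.20 in the other 52. With the block 216 and 201 of them passed.

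**Figure D1:**
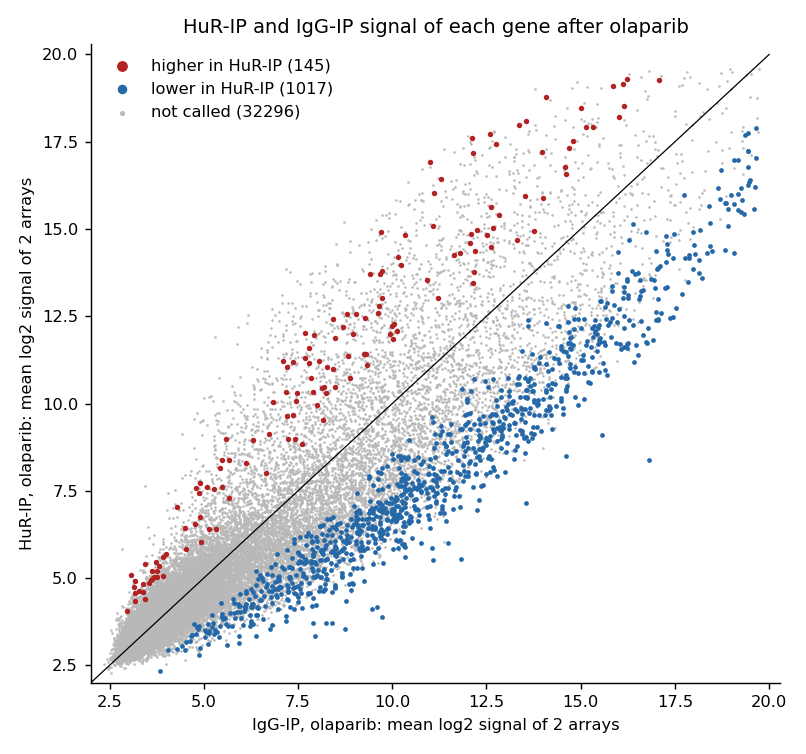
Mean log2 signal of 2 HuR-IP arrays (vertical) against 2 IgG-IP arrays (horizontal) after olaparib, with 1 point per gene; red points are the 145 genes called higher in HuR-IP, blue points the 1017 called lower, gray points the rest, and the line marks equal signal. The blue points run as a band below the line over the whole signal range, while the red points are scattered among gray points at the same distance from the line.

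Several of the 15 protein-coding genes with the highest differences encode proteins of membranes or of the secretory pathway. RETREG3, a receptor for the turnover of endoplasmic reticulum by autophagy, had 17.27 and 17.96 in OLAP-HuR and 11.76 and 12.45 in OLAP-IgG, with a log2 difference of 5.51 (SE 1.21, adjusted p = 0.0484). ATP1B1, the beta subunit of the sodium-potassium pump, had 17.23 and 18.23 in OLAP-HuR and 11.76 and 13.41 in OLAP-IgG (5.14, SE 0.99, adjusted p = 0.0311). MMGT1, a subunit of the complex that inserts proteins into the endoplasmic reticulum membrane, had 16.90 and 17.48 in OLAP-HuR and 11.75 and 12.51 in OLAP-IgG (5.06, SE 0.97, adjusted p = 0.0311). For all of them the gap between the antibodies was several times the gap between the arrays of a group. TAPBP, or tapasin, which loads peptides onto MHC class I, had 17.11 and 17.77 in OLAP-HuR and 12.25 and 13.23 in OLAP-IgG (4.69, SE 0.91, adjusted p = 0.0318). LCLAT1, a lysocardiolipin acyltransferase of the endoplasmic reticulum, had 17.50 and 18.49 in OLAP-HuR and 12.60 and 14.14 in OLAP-IgG (4.62, SE 0.87, adjusted p = 0.0285). CHSY1, a Golgi enzyme that builds chondroitin sulfate chains, was dimmer, with 10.74 and 11.68 in OLAP-HuR and 6.88 and 7.31 in OLAP-IgG (4.11, SE 0.72, adjusted p = 0.022). The rule that named these genes required both OLAP-HuR arrays to lie above both OLAP-IgG arrays, so this separation is no separate result. It held for 20.4% of all genes.

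Other genes among the 15 highest work elsewhere in the cell. AMMECR1L had 14.59 and 15.22 in OLAP-HuR and 9.60 and 9.81 in OLAP-IgG, with a difference of 5.20 (SE 0.96, adjusted p = 0.027). PPP1R15B, which directs a phosphatase to eIF2α and so limits the integrated stress response, had 15.92 and 16.16 in OLAP-HuR and 11.18 and 11.02 in OLAP-IgG (4.94, SE 1.06, adjusted p = 0.0459). ARID2, a subunit of a SWI/SNF chromatin remodeling complex, had 13.80 and 13.61 in OLAP-HuR and 9.76 and 9.04 in OLAP-IgG (4.31, SE 0.83, adjusted p = 0.0321). The arrays of each group were within 1 log2 unit of each other in these genes. DIPK2A was the most uneven of the 15, with 13.64 and 16.01 in OLAP-HuR and 9.39 and 11.28 in OLAP-IgG (4.49, SE 0.99, adjusted p = 0.0496), although both antibodies shifted the same way between the numbers. SLC30A7, a zinc transporter of the Golgi, TMEM97, SLC71A2, SLC35F5 and BARD1 completed the 15. Their adjusted p-values ran from 0.0205 to 0.0496 and at most 0.0264 with the block, and their differences stayed between 3.31 and 6.84 in all 13 alternatives, but none of the 15 was called in every alternative.

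**Figure D2:**
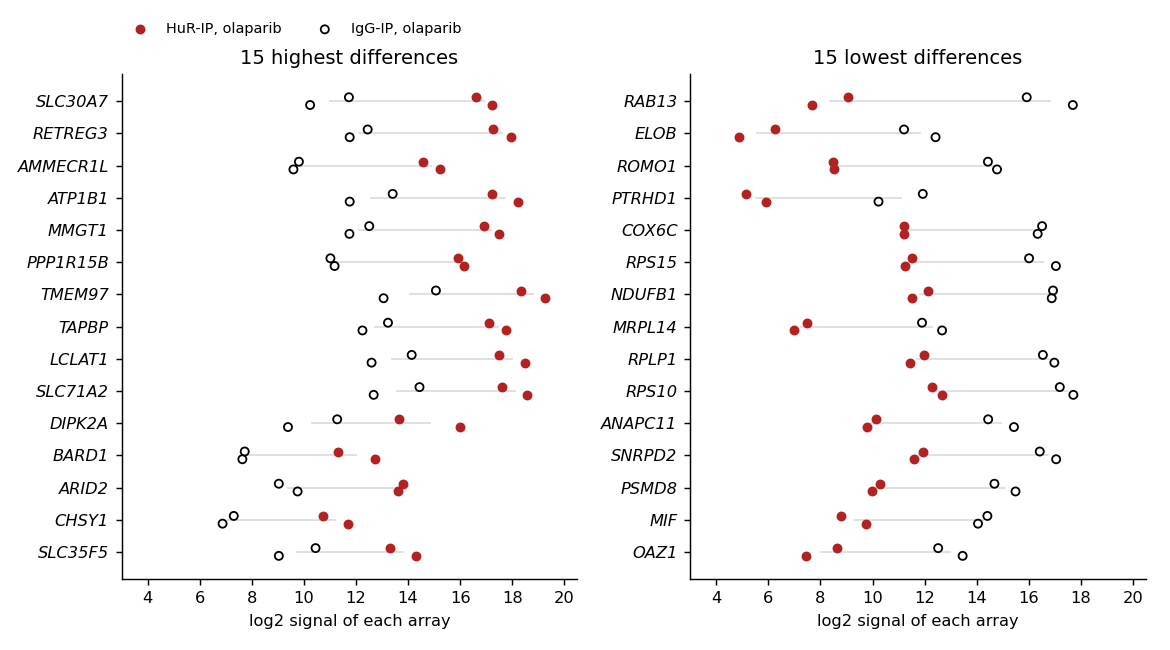
Log2 signal of each of the 4 olaparib arrays for the 15 protein-coding genes with the highest (left) and the 15 with the lowest (right) difference among the called genes; filled red points are the 2 HuR-IP arrays, open black points the 2 IgG-IP arrays, and gray lines join the group means. HuR-IP arrays sit at 10.74 to 19.24 on the left and at 4.86 to 12.67 on the right, against 6.88 to 15.07 and 10.23 to 17.71 for IgG-IP.

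Genes of the early secretory pathway were followed further, partly in genes chosen after their values were seen. TMED2, a p24 receptor that sorts cargo between endoplasmic reticulum and Golgi, had the most even values, with 19.17 and 19.11 in OLAP-HuR and 16.11 and 16.16 in OLAP-IgG (3.01, SE 0.28, adjusted p = 0.00202). SAR1B, the GTPase that starts COPII coats, had 14.60 and 15.44 in OLAP-HuR and 12.40 and 12.96 in OLAP-IgG (2.34, SE 0.44, adjusted p = 0.029). Of 8 p24 receptors tested TMED2 alone rose and none fell, with a list median of 0.61, and with the block 2 rose and 2 fell. Of 31 COPI and COPII genes SAR1B rose and COPB2, a COPI coat subunit, fell (-2.55, SE 0.50, adjusted p = 0.0322), with a list median of -1.01, and with the block 4 rose and 4 fell. Of 8 receptors for autophagy of the endoplasmic reticulum RETREG3 rose and 1 fell, with a median of 0.2. Of 22 syntaxins and VAMPs none rose and 1 fell, with a median of -0.74, and with the block 2 rose and 2 fell. Of all genes 0.433% rose and 3.04% fell. Among genes chosen after their values were seen, the Golgi membrane proteins GOLIM4 (3.73, SE 0.52, adjusted p = 0.00978), GOLM2 (4.02, SE 0.88, adjusted p = 0.0481) and GOLT1B (3.53, SE 0.77, adjusted p = 0.0481) rose. TRAM1, which sits beside the protein-conducting channel, had 18.93 and 19.27 in OLAP-HuR and 15.50 and 16.21 in OLAP-IgG (3.25, SE 0.63, adjusted p = 0.032). CALR, the calcium-binding chaperone calreticulin, had 19.01 and 19.50 in OLAP-HuR and 16.72 and 17.42 in OLAP-IgG (2.19, SE 0.42, adjusted p = 0.0316). The HuR-IP signals of TMED2, TRAM1 and CALR were near the maximum of their arrays, 19.66 and 19.5.

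Transporters and junction proteins gave further members. Of 356 genes named SLC, a family added after the values were seen, 10 rose (2.81%) and 1 fell (0.281%), and the median difference of -0.07 (0.68 after centring) was that of all genes. With the block 27 rose and 14 fell. SLC47A1, an exporter of organic cations, had 11.71 and 12.66 in OLAP-HuR and 8.72 and 8.69 in OLAP-IgG (3.49, SE 0.52, adjusted p = 0.0121). SLC41A1, a magnesium transporter, had 17.07 and 17.58 in OLAP-HuR and 14.47 and 14.94 in OLAP-IgG (2.63, SE 0.48, adjusted p = 0.0259). SLC25A11, a carrier of the mitochondrial inner membrane, was the member that fell (-2.57, SE 0.56, adjusted p = 0.0477). The direction therefore differed between individual transporters. Of 24 claudins, which seal tight junctions, CLDN11 and CLDN1 rose (8.33%) and none fell, against 0.433% and 3.04% of all genes. CLDN11 had 19.12 and 19.50 in OLAP-HuR and 16.25 and 16.23 in OLAP-IgG (3.07, SE 0.31, adjusted p = 0.00264), and CLDN1 had 17.73 and 18.12 in OLAP-HuR and 14.92 and 15.73 in OLAP-IgG (2.60, SE 0.45, adjusted p = 0.0209). The second value of CLDN11 was the maximum of the OLAP-HuR 2 array, 19.5. The other 22 claudins lay between -0.61 and 0.59, and the list had a median signal of 3.90 in OLAP-HuR and 3.89 in OLAP-IgG, so most of them were dim on every array.

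Regulators of mRNA fate were examined because HuR is known to share its targets with other RNA-binding proteins and miRNAs. TNRC6A, the GW182 scaffold of miRNA silencing, had 10.95 and 11.01 in OLAP-HuR and 8.71 and 8.13 in OLAP-IgG (2.56, SE 0.27, adjusted p = 0.00312). Its paralog TNRC6B had 11.21 and 11.52 in OLAP-HuR and 9.02 and 8.62 in OLAP-IgG (2.55, SE 0.56, adjusted p = 0.0485). These were the 2 of 13 members of the silencing machinery that rose at the adjusted threshold (15.4%), and none fell, against 0.433% and 3.04% of all genes. At the unadjusted threshold 5 members were higher and 4 lower. AGO3, an Argonaute protein, had a difference of 2.80 (SE 0.65) and an adjusted p of 0.0587, or 0.00388 with the block. PRKRA, a partner of Dicer, had -2.68 (SE 0.72, adjusted p = 0.0907, or 0.0189 with the block). With the block 5 members rose and 1 fell, where 3.18% and 6.82% of all genes did. Neither the 21 Pumilio, CPEB, IGF2BP, Roquin, FMR1 and Staufen genes nor the 16 ELAV and AU-rich element binding genes had a call at the adjusted threshold, and with the block 6 and 2 of them rose and 0 and 1 fell. IGF2BP3 had 16.37 and 15.17 in OLAP-HuR and 12.58 and 12.28 in OLAP-IgG (3.34, SE 0.98, adjusted p = 0.118, or 0.0131 with the block). ELAVL1 itself had 19.27 and 19.44 in OLAP-HuR and 18.20 and 17.59 in OLAP-IgG (1.46, SE 0.55, adjusted p = 0.211, or 0.047 with the block), close to the highest signal of any cluster on the OLAP-HuR arrays, 19.66 and 19.5.

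A list of 44 tested mRNAs that the literature names as HuR targets had no call in either direction at the adjusted threshold. Of all genes 0.433% were higher and 3.04% lower there, so a list of this size could hold few calls. At the unadjusted threshold 6 were higher (13.6%) and 6 lower (13.6%), against 5.6% and 12.4% of all genes. Among genes with a mean above 6 these shares were 11.1% and 32.1%. The median difference of the list was 0.10, or 0.86 after centring. With the block 9 of the 44 rose and 2 fell, against 3.18% and 6.82% of all genes. IGF1R, a growth factor receptor, had 15 and 17.09 in OLAP-HuR and 9.46 and 12.15 in OLAP-IgG (5.24, SE 1.20, adjusted p = 0.0563, or 0.0194 with the block). EIF4E, the cap-binding protein, had 14.94 and 13.06 in OLAP-HuR and 9.38 and 7.69 in OLAP-IgG (5.46, SE 2.06, adjusted p = 0.211, or 0.0262 with the block). CTNNB1, or β-catenin, had 14.83 and 15.29 in OLAP-HuR and 10.07 and 10.37 in OLAP-IgG (4.84, SE 1.47, adjusted p = 0.128, or 0.0489 with the block). All 3 had HuR-IP arrays far above the IgG-IP arrays and yet missed the threshold without the block. PLAUR and PLAU, receptor and ligand of the urokinase system, had differences of -2.89 and -2.51 and were called lower with the block (adjusted p = 0.0419 and 0.0434). Other members lay near 0, such as HIF1A, the hypoxia factor, at -0.27 with 16.19 and 15.85 in OLAP-HuR and 16.49 and 16.10 in OLAP-IgG. WEE1, the kinase that restrains mitotic entry, had 13.71 and 13.88 in OLAP-HuR and 11.86 and 12.32 in OLAP-IgG (1.70, SE 0.49, adjusted p = 0.113, or 0.0507 with the block). EIF4E and CTNNB1, PLAU and HIF1A were picked from the list after their values were seen.

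Genes of DNA repair were mixed, in the setting of a drug that blocks PARP. Of 42 homologous recombination genes BARD1 rose and RPA3 fell (2.38% each), against 0.433% and 3.04% of all genes. BARD1, the partner of BRCA1, had 11.31 and 12.72 in OLAP-HuR and 7.64 and 7.73 in OLAP-IgG (4.33, SE 0.79, adjusted p = 0.0252). RPA3, the smallest subunit of the single-strand binding complex, had 9.30 and 8.54 in OLAP-HuR and 13.50 and 13.73 in OLAP-IgG (-4.70, SE 0.53, adjusted p = 0.00389). The remaining 40 genes lay between -3.68 and 3.75 without a call, and the list median was -0.79, or -0.03 after centring. BRCA1, picked after its values were seen, had 6.28 and 4.80 in OLAP-HuR and 7.97 and 7.75 in OLAP-IgG (-2.32, SE 0.81, adjusted p = 0.181, or 0.125 with the block). With the block 4 of the 42 rose and 3 fell.

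The other repair lists had 1 or 2 calls each. Among all genes with a mean above 6, 9.84% fell and the median was -0.91, and the shares lower in the PARP (7.14%), end joining (5.88%) and Fanconi anaemia (12.5%) lists were near that, so the calls are given for the single genes. Of 28 genes of the PARP family and ADP-ribose turnover none rose and 2 fell, and with the block 1 rose and 3 fell. HPF1, the cofactor that makes PARP1 and PARP2 modify serine, had 8.07 and 8.37 in OLAP-HuR and 11.39 and 10.55 in OLAP-IgG (-2.75, SE 0.59, adjusted p = 0.0455). POLB, the polymerase of base excision repair, had 8.03 and 7.37 in OLAP-HuR and 10.51 and 9.72 in OLAP-IgG (-2.42, SE 0.38, adjusted p = 0.0148). PARP1, the main target of olaparib, which was picked after its values were seen, showed no such gap, with 13.86 and 13.12 in OLAP-HuR and 13.59 and 13.17 in OLAP-IgG (0.11, SE 0.69, adjusted p = 0.958). PARP2 had 7.31 and 6.44 in OLAP-HuR and 10.30 and 9.27 in OLAP-IgG (-2.91, SE 0.67, adjusted p = 0.0574, or 0.0236 with the block). Of 17 end joining genes MAD2L2, the shieldin subunit REV7, fell, with 7.85 and 7.42 in OLAP-HuR and 12.72 and 11.99 in OLAP-IgG (-4.72, SE 0.61, adjusted p = 0.0069), and with the block 3 fell. Of 16 Fanconi anaemia genes UBE2T, the E2 enzyme of the pathway, and CENPX fell (-1.75 and -2.08, adjusted p = 0.0433 and 0.0497). The medians of these 3 lists, -0.71, -0.73 and -1.11, became 0.04, 0.02 and -0.36 after centring, so the direction of the PARP and end joining medians turned with the scaling. Of 29 checkpoint genes CCNB2, a mitotic cyclin, fell (-3.84, SE 0.65, adjusted p = 0.0194) and PPP4R2, a phosphatase subunit that acts on γH2AX, rose (2.64, SE 0.57, adjusted p = 0.0466). With the block 2 checkpoint genes rose and 3 fell.

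The lowest protein-coding genes came from many kinds of proteins. RAB13, a small GTPase of vesicle traffic and cell junctions, had the lowest difference of all genes, with 9.06 and 7.69 in OLAP-HuR and 17.69 and 15.92 in OLAP-IgG (-8.43, SE 1.31, adjusted p = 0.0142). ELOB, the elongin B subunit of ubiquitin ligases, had 6.25 and 4.86 in OLAP-HuR and 12.42 and 11.21 in OLAP-IgG (-6.26, SE 0.78, adjusted p = 0.00595). ROMO1, a small protein of the mitochondrial inner membrane, had 8.48 and 8.51 in OLAP-HuR and 14.78 and 14.43 in OLAP-IgG (-6.11, SE 0.38, adjusted p = 0.000629). Some of the lowest genes were very even within a group. COX6C, a subunit of cytochrome c oxidase, had 11.20 and 11.20 in OLAP-HuR and 16.34 and 16.51 in OLAP-IgG (-5.22, SE 0.29, adjusted p = 0.00052). SNRPD2, an Sm protein of the spliceosome, had 11.94 and 11.59 in OLAP-HuR and 17.05 and 16.42 in OLAP-IgG (-4.97, SE 0.53, adjusted p = 0.00316). MIF, a secreted cytokine, had 8.80 and 9.75 in OLAP-HuR and 14.05 and 14.41 in OLAP-IgG (-4.95, SE 0.57, adjusted p = 0.00454). Of the 15 lowest genes 9 were called in all 13 alternatives, and the differences of the 15 ran from -9.31 to -2.48 over them. The other members were PTRHD1, RPS15, NDUFB1 of complex I, MRPL14, RPLP1, ANAPC11 of the anaphase-promoting complex, RPS10, PSMD8 of the proteasome and OAZ1, the antizyme that controls polyamines.

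Of 60 cytosolic ribosomal protein genes tested, 46 fell (76.7%) and none rose, with a median difference of -3.17 (-5.14 to 0.28). Their median signal was 13.44 in OLAP-HuR and 17.42 in OLAP-IgG. RPS12 had 14.61 and 14.02 in OLAP-HuR and 19.08 and 19.05 in OLAP-IgG (-4.75, SE 0.26, adjusted p = 0.00052). RPS14 had 14.36 and 14.41 in OLAP-HuR and 18.49 and 18.48 in OLAP-IgG (-4.10, SE 0.26, adjusted p = 0.000629). RPL37A had 15.30 and 14.85 in OLAP-HuR and 18.98 and 18.86 in OLAP-IgG (-3.84, SE 0.25, adjusted p = 0.000754). The list stayed lower under both other scalings, with 33 calls and a median of -2.04 after cyclic loess and 37 calls and a median of -2.42 after centring. The genome holds many processed copies of these genes, and 238 of 943 ribosomal protein pseudogenes (25.2%) also fell and none rose, against 4.28% of all 9509 pseudogenes. Probes for near-identical copies can read the same RNA, so these pseudogene values are uncertain and add no separate evidence.

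Ribosomal protein mRNAs are known for a run of pyrimidines that starts with C at the first transcribed base, the 5′ terminal oligopyrimidine (TOP) motif. Annotated starts were therefore read from RefSeq for GRCh38.p14, taking a C followed by at least 4 further C or T bases at the start base on the gene's own strand as a match. The sequences below run from 10 bases before the start to the 20th transcribed base, with the run in capitals, and show 4 ribosomal genes, RAB13 and NDUFA6, a complex I subunit, which all fell, and RETREG3, BARD1 and TMEM97, which rose. They are examples and do not reflect the shares of matches, which are counted after them. RPS15, the ribosomal gene with the lowest difference (-5.14), has a run of only 1 base and is not shown.
RPLP1 (chr15:69452808-69452837, + strand): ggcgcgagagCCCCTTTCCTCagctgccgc
RPS12 (chr6:132814559-132814588, + strand): cggatgaggcCTCTTTCCCTgccgccgccg
RPS14 (chr5:150449720-150449749, - strand): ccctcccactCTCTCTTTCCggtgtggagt
RPS10 (chr6:34426050-34426079, - strand): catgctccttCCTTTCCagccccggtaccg
RAB13 (chr1:153986320-153986349, - strand): aggaaaacttCTTCCTggcctgggctccgt
NDUFA6 (chr22:42090753-42090782, - strand): gcaaaggggtggggttgtggagtggatgct
RETREG3 (chr17:42609408-42609437, - strand): gcaagcgcgctgtggtgcgaagccacctcc
BARD1 (chr2:214809664-214809693, - strand): ccgccgtcccagacgcgggaagagcttggc
TMEM97 (chr17:28319190-28319219, + strand): gatttggcccCTCTTCTCacatcagcgggt
Of the 42 ribosomal genes that fell and had a start sequence, 31 held a match (73.8%). Among the other protein-coding genes that fell it was 32 of 470 (6.81%), among those that rose 4 of 86 (4.65%), and among all 14287 protein-coding genes with a start sequence 642 (4.49%). Within the ribosomal list, 31 of 35 genes with a match fell (88.6%), as did 11 of 18 without one (61.1%), with median differences of -3.43 and -2.98. Among other protein-coding genes with a mean above 6, 9.15% with a match and 7.29% without one fell, with medians of -1.04 and -0.98. Outside the ribosomal genes the share of genes that fell was thus close with and without the match. A match describes the annotated start only, and start sites in these cells were not measured.

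Nuclear-encoded subunits of the respiratory chain also fell. Of 33 complex I genes 19 fell (57.6%) and none rose, with a median of -3.65. Of 32 genes of complexes III to V, 23 fell (71.9%) and none rose, with a median of -3.85, and all 32 were lower at the unadjusted threshold. UQCRQ of complex III had 12.47 and 12.39 in OLAP-HuR and 17.18 and 16.90 in OLAP-IgG (-4.61, SE 0.34, adjusted p = 0.0013). COX5B of complex IV had 9.73 and 10.13 in OLAP-HuR and 14.20 and 14.50 in OLAP-IgG (-4.42, SE 0.32, adjusted p = 0.00129). NDUFA6 of complex I had 11.91 and 11.50 in OLAP-HuR and 16.44 and 16.03 in OLAP-IgG (-4.53, SE 0.37, adjusted p = 0.00154). The nearest arrays of both groups were over 4 log2 units apart in each of them. With the block 31 genes fell in each of the 2 lists. The medians were -3.05 and -2.99 after cyclic loess and -2.90 and -3.09 after centring. Of 74 mitochondrial ribosomal protein genes 25 fell (33.8%), or 43 with the block, and none rose, with a median of -2.13. Of 22 import genes of the TIMM and TOMM families 7 fell (31.8%), such as TIMM8B, a small chaperone of the intermembrane space, with 7.32 and 6.73 in OLAP-HuR and 12.37 and 11.20 in OLAP-IgG (-4.76, SE 0.63, adjusted p = 0.00759).

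**Figure D3:**
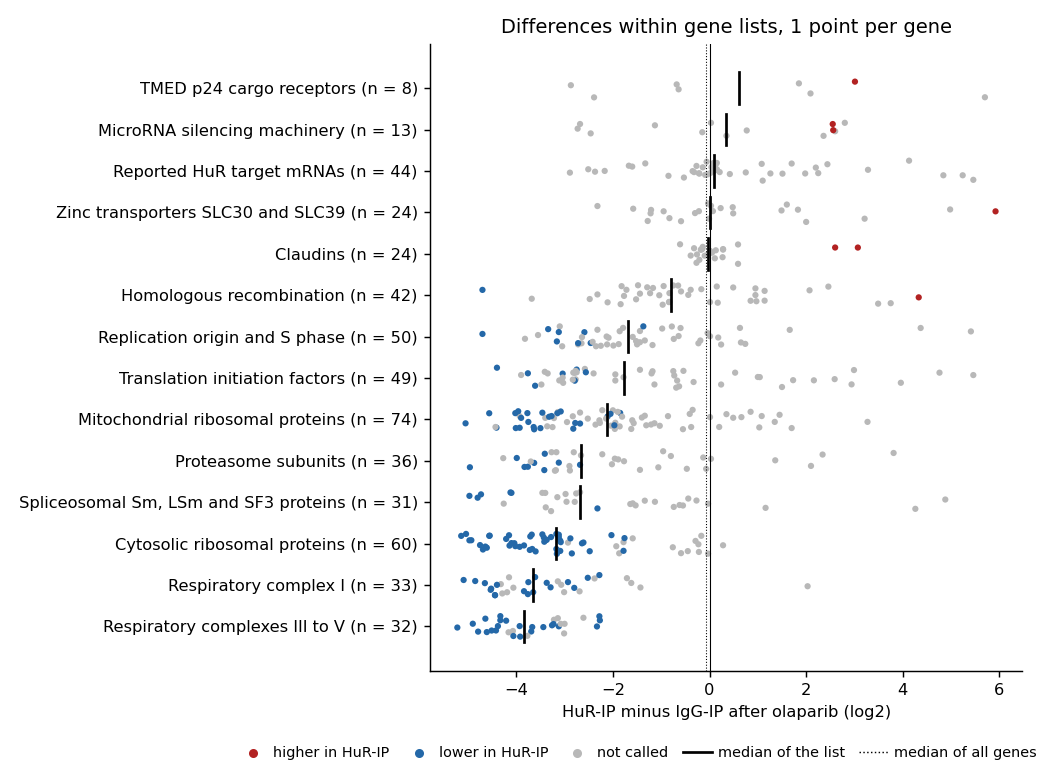
Log2 difference of HuR-IP minus IgG-IP after olaparib (horizontal) for the tested members of 14 gene lists, with 1 point per gene; red marks calls higher in HuR-IP, blue calls lower and gray no call, black bars are list medians, and the dotted line is the median of all genes. Points of respiratory complexes III to V are all below 0, with 23 of 32 called lower, while reported HuR targets spread on both sides with no call.

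Proteasome, spliceosome and other housekeeping complexes also held genes that fell. Among all genes with a mean above 6 the share that fell was 9.84%. Synthetases and mitotic genes (4.55%) were under that share. Initiation factors, glycolysis and replication were closer to it than the proteasome was. The calls are therefore given for the single genes. Of 36 proteasome genes 9 fell (25%), or 18 with the block, and none rose. PSMA2, a subunit of the core particle, had 12.42 and 12.24 in OLAP-HuR and 16.35 and 15.57 in OLAP-IgG (-3.63, SE 0.45, adjusted p = 0.00589). Of 31 genes for Sm, LSm and SF3 proteins 6 fell (19.4%) and none rose, while with the block 15 fell and 1 rose. SNRPC, a protein of the U1 particle, had 8.43 and 8.45 in OLAP-HuR and 12.79 and 12.28 in OLAP-IgG (-4.10, SE 0.41, adjusted p = 0.00262). Of 30 aminoacyl-tRNA synthetases 2 fell (6.67%), or 4 with the block, and none rose. Of 49 translation initiation factors 7 fell (14.3%), among them EIF3K with 10.22 and 9.94 in OLAP-HuR and 15.09 and 13.87 in OLAP-IgG (-4.40, SE 0.63, adjusted p = 0.0106). With the block this list divided, with 18 genes lower and 6 higher. Of 50 genes of replication and S phase 8 fell (16.0%), while with the block 16 fell and 2 rose. TYMS, or thymidylate synthase, had 10.89 and 9.88 in OLAP-HuR and 13.92 and 13.18 in OLAP-IgG (-3.16, SE 0.52, adjusted p = 0.0173). Of 18 glycolysis genes 3 fell (16.7%), while with the block 6 fell and 1 rose, and the 3 were TPI1, ALDOA and ENO1 with differences of -3.15, -3.59 and -3.04. PTTG1, or securin, was 1 of 2 of the 44 mitotic genes that fell, with 9.17 and 9.28 in OLAP-HuR and 14.02 and 13.89 in OLAP-IgG (-4.73, SE 0.37, adjusted p = 0.00153), and with the block 4 of them fell and 1 rose. The median of each of these lists stayed below 0 after loess and after centring.

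Several large families held few calls. Of all genes 0.433% rose and 3.04% fell, or 1.2% and 9.84% of those with a mean above 6. With the block 3.18% and 6.82% of all genes rose and fell. The counts below are therefore not read as results about the families. Of 484 zinc finger genes named ZNF 2 rose (0.413%) and 3 fell (0.62%), with a median of -0.09 (0.66 after centring). With the block 30 of them rose and 8 fell. Of 62 RAB genes RAB13 alone fell and none rose, and with the block 7 rose and 3 fell. RAB14, an endosomal RAB, had 15.22 and 14.63 in OLAP-HuR and 13.86 and 13.44 in OLAP-IgG (1.28, SE 0.38, adjusted p = 0.122, or 0.0225 with the block). Of 58 replication-dependent histone genes, whose mRNAs end in a stem-loop in place of a poly(A) tail, 4 fell (6.9%), or 16 with the block, and none rose. H2AC11 had 14.25 and 14.91 in OLAP-HuR and 16.94 and 17.66 in OLAP-IgG (-2.72, SE 0.54, adjusted p = 0.0356). Of 42 lysine methyltransferase and demethylase genes SETD5 rose, with 11.52 and 12.26 in OLAP-HuR and 8.55 and 8.42 in OLAP-IgG (3.41, SE 0.48, adjusted p = 0.0099), and EHMT1, a histone H3 lysine 9 methyltransferase, fell (-2.56, SE 0.50, adjusted p = 0.0335). With the block 6 of them rose and 2 fell. Of 67 heat shock and DNAJ genes HSPA13 rose (1.86, SE 0.23, adjusted p = 0.00594) and 4 fell, such as HSPE1, the mitochondrial co-chaperonin, with 15.67 and 15.38 in OLAP-HuR and 19.20 and 19.17 in OLAP-IgG (-3.66, SE 0.64, adjusted p = 0.022). With the block 6 rose and 7 fell.

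The genes that rose and those that fell differed in length. The median gene span, from first to last annotated base and introns included, was 76.3 kb for the 103 protein-coding genes that rose and 11.6 kb for the 578 that fell, against 26.0 kb for all protein-coding genes and 33.9 kb for those with a mean above 6. Without the ribosomal genes the median of those that fell was 12.7 kb. At the unadjusted threshold it was 38.3 kb for 1078 genes higher and 21.2 kb for 2758 genes lower. When the 7114 protein-coding genes with a mean above 6 were put into 10 bins of 711 or 712 genes by span, 23.3% fell in the bin of the shortest genes (0.276 to 6.24 kb) and 2.39% in that of the longest (150.0 to 2470 kb). Calls in the other direction were 0.281% in the first bin and 2.81% in the last. The median difference was -1.98 in the first bin and -0.49 in the last. The length of the mRNA and of its 3′UTR was not measured, and the part of either in these shares was not tested.

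**Figure D4:**
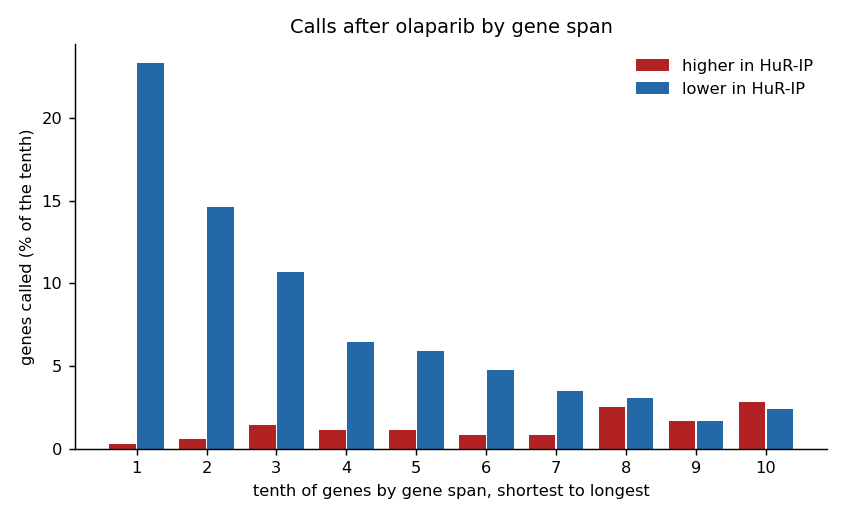
Share of protein-coding genes with a mean above 6 called higher (red) or lower (blue) in HuR-IP after olaparib, in 10 bins by gene span from the shortest to the longest; each bin holds 711 or 712 genes. The share called lower is 23.3% in the first bin and 2.39% in the last.

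Among RNAs that do not code for protein, 7SK pseudogenes gave the lowest values. RN7SKP22 had 9.30 and 8.89 in OLAP-HuR and 14.86 and 16.27 in OLAP-IgG (-6.47, SE 0.59, adjusted p = 0.00199). RN7SKP55 had 6.89 and 7.41 in OLAP-HuR and 13.19 and 13.94 in OLAP-IgG (-6.41, SE 0.62, adjusted p = 0.00236). Of 280 such copies 54 fell (19.3%) and none rose, whereas of 663 copies of 7SL 3 fell (0.452%) and none rose. These copies resemble their parent RNAs closely, and which RNA the probes read cannot be told apart here. At the upper end, FKBP9P1, a transcribed pseudogene, had 15.98 and 16.90 in OLAP-HuR and 10.52 and 12.08 in OLAP-IgG (5.14, SE 1.09, adjusted p = 0.0436), and SRRM1P2 had 10.95 and 12.25 in OLAP-HuR and 7.63 and 7.94 in OLAP-IgG (3.81, SE 0.61, adjusted p = 0.0154). The long noncoding RNA LOC100288069 had 10.60 and 9.99 in OLAP-HuR and 7.41 and 7.50 in OLAP-IgG (2.84, SE 0.56, adjusted p = 0.0334). SNORA70, a box H/ACA RNA with 29 clusters on the array, rose (1.95, SE 0.31, adjusted p = 0.016) and was the 1 call among 247 small nucleolar and Cajal body RNAs, of which 2 rose and 7 fell with the block.

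Among 1439 tested members of the miRNA list 5 rose (0.347%) and 3 fell (0.208%), and with the block 21 rose and 6 fell. Over all 1470 genes of that type 7 rose (0.476%) and 3 fell (0.204%). Mature sequences are given for 4 of the called loci that rose and 2 that fell, with the seed (bases 2 to 8) in capitals, taken from RefSeq for GRCh38.p14.
hsa-miR-4261 (chr2:10192624-10192639, - strand): aGGAAACAgggaccca
hsa-miR-1537-3p (chr1:235853000-235853021, - strand): aAAACCGUcuaguuacaguugu
hsa-miR-644a (chr20:34466385-34466403, + strand): aGUGUGGCuuucuuagagc
hsa-miR-548ad-3p (chr2:35471453-35471474, + strand): gAAAACGAcaaugacuuuugca
hsa-miR-4426 (chr1:192716333-192716349, + strand): gAAGAUGGacguacuuu
hsa-miR-3654 (chr7:133034860-133034878, - strand): gACUGGACaagcugaggaa
No pair of the called loci with a sequence shared a seed. MIR548AA2, which has no sequence here and was picked after its values were seen, rose with 9.42 and 9.84 in OLAP-HuR and 7.19 and 7.21 in OLAP-IgG (2.43, SE 0.53, adjusted p = 0.0469). The first 4 loci shown rose: MIR4261 had 7.39 and 7.78 in OLAP-HuR and 4.73 and 4.85 in OLAP-IgG (2.80, SE 0.41, adjusted p = 0.0119). MIR1537 had 4.75 and 4.73 in OLAP-HuR and 3.23 and 3.08 in OLAP-IgG (1.59, SE 0.23, adjusted p = 0.0117). MIR4261 and MIR1537 were dim, and the IgG-IP values of MIR1537 were near the background probes. The last 2 fell and were bright: MIR4426 had 13.52 and 12.46 in OLAP-HuR and 16.60 and 16.48 in OLAP-IgG (-3.55, SE 0.40, adjusted p = 0.00401), and MIR3654 had 14.33 and 13.87 in OLAP-HuR and 18.46 and 17.84 in OLAP-IgG (-4.05, SE 0.71, adjusted p = 0.0216). Whether a cluster read a mature strand, its hairpin or a longer transcript across the locus is not given in the sources used here.

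The same genes were then read in the arrays of the other treatments. The calls used those arrays only through the shared spread, which favors genes whose arrays also agreed there. Of the 145 genes higher in OLAP-HuR than in OLAP-IgG, 130 (89.7%) had both HuR-IP arrays above both IgG-IP arrays with gemcitabine and 125 (86.2%) with DMSO. Among all genes these shares were 14.6% and 12.7%. All genes had a median signal of 4.23 in OLAP-HuR and 4.28 in OLAP-IgG, so they are not matched to the called genes in signal. Of the 1017 that fell, 996 (97.9%) had both HuR-IP arrays below with gemcitabine and 975 (95.9%) with DMSO, against 21.5% and 23.9%. The differences were smaller there, with medians of 1.83 (gemcitabine) and 1.60 (DMSO) for the 145 genes and -2.24 (gemcitabine) and -1.83 (DMSO) for the 1017. The genes were chosen with olaparib, which by itself favors larger values there. By replicate number, the median of the 145 genes was 2.32 and 2.47 with olaparib, 2.15 and 1.32 with gemcitabine and 1.98 and 1.11 with DMSO for arrays numbered 1 and 2. That of the 1017 genes was -3.06 and -3.02 with olaparib, -2.93 and -1.57 with gemcitabine and -2.25 and -1.41 with DMSO. The arrays numbered 1 were therefore closer between treatments than those numbered 2, where the HuR-IP arrays of gemcitabine and DMSO stood apart. What set those 2 arrays apart was not tested.

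**Figure D5:**
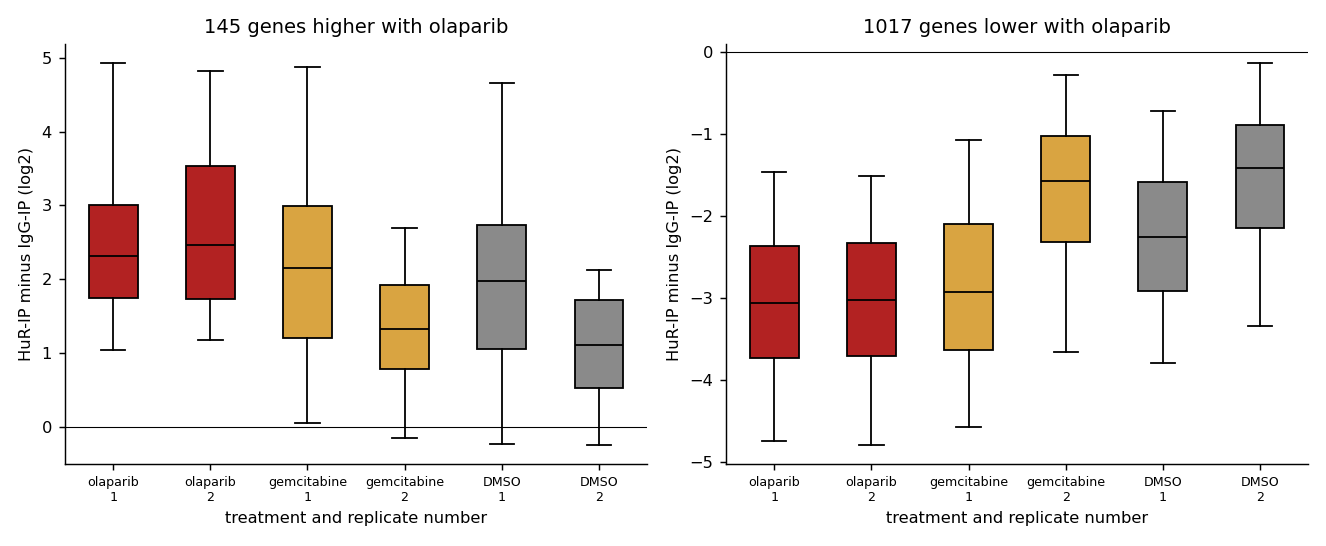
Log2 difference of HuR-IP minus IgG-IP for same-numbered arrays of each treatment, in the 145 genes called higher (left) and the 1017 called lower (right) with olaparib; boxes span the middle 50% of genes with the median as a line, and whiskers reach from the 5th to the 95th percentile. The medians are 2.32 and 2.47 with olaparib on the left and -3.06 and -3.02 on the right, and the boxes numbered 2 of gemcitabine and DMSO are closest to 0.

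Tested directly, no gene differed between olaparib and DMSO, or between olaparib and gemcitabine, in its HuR-IP to IgG-IP difference at an adjusted p under 0.05 (limma interaction, 0 of 33458 in each). At an unadjusted p under 0.05, 392 differences were higher (1.17%) and 494 lower (1.48%) with olaparib than with DMSO, and 366 higher (1.09%) and 332 lower (0.992%) than with gemcitabine. When GEM-HuR 2 and DMSO-HuR 2 were left out, 182 were higher and 542 lower than with DMSO, and 249 higher and 340 lower than with gemcitabine. BARD1 had a difference of 4.33 with olaparib and 1.76 with DMSO, and the interaction was 2.57 (SE 1.12, unadjusted p = 0.0488, adjusted p = 1). Its DMSO-HuR arrays read 10.62 and 8.69, against 7.85 and 7.95 in DMSO-IgG. SLC33A1, the acetyl-CoA transporter of the endoplasmic reticulum, had 10.69 and 10.80 in OLAP-HuR and 7.85 and 7.84 in OLAP-IgG, and 9.97 and 8.93 in DMSO-HuR and 8.08 and 9.02 in DMSO-IgG (interaction 1.99, SE 0.70, unadjusted p = 0.0203, adjusted p = 1). RPS15 had a difference of -5.14 with olaparib and -1.77 with DMSO (interaction -3.38, SE 1.23, unadjusted p = 0.024, adjusted p = 1), where the DMSO-HuR arrays read 14.09 and 15.39 and the DMSO-IgG arrays 17.00 and 16.01. NME4, a nucleoside diphosphate kinase of mitochondria, was among the 5 lowest in both interactions, at -3.25 (SE 1.39) against DMSO and -3.31 (SE 1.39) against gemcitabine, with adjusted p = 1 in both. In contrast, COX6C differed little between treatments, with -5.22 with olaparib, -5.52 with gemcitabine and -4.56 with DMSO. Nothing in these comparisons could be called particular to olaparib.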

How the data were processed

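RNA from cytoplasmic HuR-IP and IgG-IP of MiaPaCa-2 cells was hybridized to Clariom D arrays by the authors. The deposited values are log2 signals after RMA preprocessing by the authors (per the submitters' processing notes, Affymetrix Expression Console 1.4). The genome build of the array files and the summarization settings are not given in the sources used here. The table held 138745 features, of which 2995 were control features. Of 135750 transcript clusters, 36176 had 1 symbol, 1119 several and 98455 none. Names were updated through the RefSeq gene table of GRCh38.p14 (25516 clusters by gene ID, 9899 by symbol, 623 by an older symbol; 138 kept their name). For 1707 genes with over 1 cluster the brightest was kept. Values were used without further scaling and without a filter on dim genes.

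A linear model of 6 groups over 12 arrays was fitted with limma (version 3.58.1, under R 4.3.3; tables were handled in Python 3.11.15), which left 6 residual degrees of freedom beside 2.42 from the prior, and tested with its moderated statistic, Benjamini-Hochberg adjusted over 33458 genes. SE is that of the fit. Contrasts were OLAP-HuR minus OLAP-IgG and its difference from the same contrast in DMSO and gemcitabine. On simulated data for the first contrast in 33458 genes, 1, 21, 28 and 42 of 50 changes of 1, 2, 3 and 4 log2 units were recovered, with 6 false calls. The simulated errors were independent between arrays, which those of the data were not, so these counts need not hold for the data. The number of arrays limits the precision.

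Replicate numbers were checked for pairing. For each of the 15 pairs of groups, the deviations from the group mean were correlated between arrays with the same number, which gave 0.25 to 0.91 (0.67 between OLAP-HuR and OLAP-IgG; 9139 genes with a mean above 6), so the numbers were taken to pair the arrays; the labels give the numbers but not what they share. The reported model has no block, as the methods name none. Its SE therefore includes any shift shared by arrays of the same number, and a gene without a call can have one with the block. A value from the model with the block stands beside a gene or list if the call differs or its count moves by over 1.5 times. RNA types, pseudogene families, span bins and start sequences were counted without the block only.

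Members, lists and rules were chosen with earlier results of these data known. Named genes were the 15 highest and 15 lowest protein-coding and the 5 highest and 5 lowest other genes past the adjusted threshold whose groups did not overlap, up to 4 members of each list with the largest moderated statistic, the 5 highest and 5 lowest of each interaction at the unadjusted threshold, ELAVL1 and BARD1; others are marked as picked after their values were seen. Lists were described by counts and medians and not tested. Start and mature miRNA sequences came from RefSeq (GRCh38.p14).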

Additional observations from a re-analysis of the deposited data

Results flagged for a closer look

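Of the 145 genes that rose, 5 had both HuR-IP arrays below both IgG-IP arrays with DMSO and 4 with gemcitabine. Of the 1017 that fell, 1 had both HuR-IP arrays above with DMSO. For 6 of the named genes the HuR-IP arrays lay on opposite sides of the IgG-IP arrays in olaparib and in another treatment. Each had an adjusted p of 1 for the difference between the treatments (limma interaction), so none is shown to differ.

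Against gemcitabine, MIR1537 had a difference of 1.59 with olaparib and -0.28 with gemcitabine (interaction 1.86, SE 0.33, unadjusted p = 0.000406), with 3.40 and 3.39 in GEM-HuR and 3.80 and 3.54 in GEM-IgG, near the background probes. ASAP1, an activator of ARF GTPases, had 1.95 with olaparib and -0.44 with gemcitabine (unadjusted p = 0.00293). PPM1K, a mitochondrial phosphatase, had 0.70 and -1.19 (unadjusted p = 0.0434), and RBM44 had -1.47 and 0.86 (unadjusted p = 0.00604). PTPRC, an immune marker that was dim on every array, had 0.52 and -0.54 (unadjusted p = 0.0925). Against DMSO, EXOC7, a subunit of the exocyst, had 0.72 with olaparib and -1.63 with DMSO (unadjusted p = 0.00102), with 8.21 and 7.98 in OLAP-HuR, 7.43 and 7.33 in OLAP-IgG, 6.68 and 6.79 in DMSO-HuR and 8.36 and 8.38 in DMSO-IgG.

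Outside the genes described, the 99574 clusters with no symbol or several symbols held 170 that were higher (0.171%) and 392 that were lower (0.394%) in OLAP-HuR than in OLAP-IgG when fitted with the same model.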

How the results depend on the processing

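The numbers of genes higher and lower in OLAP-HuR than in OLAP-IgG, 145 and 1017 as reported, moved with most settings. With the replicate block they were 1063 and 2281, and with the 4 olaparib arrays alone 720 and 1665, or 2391 and 5252 with the replicate block. When DMSO-HuR 2 and GEM-HuR 2 were left out they were 959 and 2045. A trended and robust prior gave 28 and 308, cyclic loess 235 and 744, centring 588 and 684, genes with a mean above 6 alone 237 and 1171, and the mean of all clusters of a gene 132 and 1008. At the unadjusted threshold they were 1872 and 4133. Leaving out 1 olaparib array gave 6 to 34 higher and 154 to 346 lower: 34 and 346 without OLAP-HuR replicate 1, 7 and 198 without OLAP-HuR replicate 2, 6 and 154 without OLAP-IgG replicate 1, and 9 and 215 without OLAP-IgG replicate 2, where the lone array was taken to vary like the other groups. The interactions had 0 calls in every setting run. None of the 258 named genes changed direction in a called value. Of the 141 called, 141 were also called with the replicate block, 62 with the trended prior, 118 after loess, 114 after centring and 41 to 61 with an array left out. List medians turned sign with centring, among them those of the PARP (-0.71 and 0.04), end joining (-0.73 and 0.02), p53 (-0.15 and 0.60), interferon (-0.13 and 0.62) and zinc finger (-0.09 and 0.66) lists. Leaving out 1 array also turned some: without OLAP-IgG replicate 1 the p24 median was -0.29 (0.61 as reported), that of p53 0.08 and that of zinc fingers 0.05, which was 0.02 without OLAP-HuR replicate 2. The cause of these shifts was not tested. Differences between genes near the background probes, at 2.88 to 3.01, are limited by their low signal over background.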

Other observations

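The genes below were picked after their values were seen, and among them were abundant structural RNAs. 18S ribosomal RNA, read by RNA18SN5, had 16.52 and 17.93 in OLAP-HuR and 19.38 and 19.47 in OLAP-IgG (-2.20, SE 0.48, adjusted p = 0.0483). RNU4ATAC, the U4atac RNA of the minor spliceosome, had 14.04 and 13.37 in OLAP-HuR and 15.88 and 16.98 in OLAP-IgG (-2.72, SE 0.43, adjusted p = 0.0153). 7SK itself had 17.77 and 18.59 in OLAP-HuR and 19.76 and 19.61 in OLAP-IgG (RN7SK, -1.50, SE 0.55, adjusted p = 0.198, or 0.121 with the block), and its second OLAP-IgG value was just under the maximum of that array, 19.62. RN7SL1, the RNA of the signal recognition particle, differed as much between the numbers as between the antibodies, with 10.73 and 14.12 in OLAP-HuR and 14.29 and 18.48 in OLAP-IgG (adjusted p = 0.305).

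Long noncoding RNAs went both ways. SNHG19 (-4.19, SE 0.51, adjusted p = 0.00544), a small nucleolar RNA host gene, EPB41L4A-AS1 (-3.87, SE 0.59, adjusted p = 0.0131) and CRNDE (-2.61, SE 0.55, adjusted p = 0.0431) fell. NIPBL-DT (2.41, SE 0.52, adjusted p = 0.0467) and PKD1L1-AS1 (2.63, SE 0.52, adjusted p = 0.0356) rose.

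Some mRNAs with very large gaps had no call. S1PR2, a sphingosine-1-phosphate receptor and the highest difference of all genes, had 14.21 and 13.47 in OLAP-HuR and 7.48 and 6.88 in OLAP-IgG (6.66, SE 1.66, adjusted p = 0.0723, or 0.015 with the block). PDGFA, a growth factor, had 12.26 and 11.58 in OLAP-HuR and 5.26 and 5.37 in OLAP-IgG (6.60, SE 2.03, adjusted p = 0.133, or 0.032 with the block). RBMS3, an RNA-binding protein, had 15.12 and 15.29 in OLAP-HuR and 8.20 and 9.27 in OLAP-IgG (6.47, SE 1.80, adjusted p = 0.101, or 0.0452 with the block). IFIT5, an interferon-induced RNA-binding protein, had 12.60 and 11.33 in OLAP-HuR and 7.13 and 6.37 in OLAP-IgG (5.21, SE 1.77, adjusted p = 0.168, or 0.0243 with the block). None of the 31 interferon response genes was called without the block, and with it 2 rose and none fell.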
